A study of Mus musculus with 15 samples.

Results

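Cell division genes were followed across gonadal white adipose tissue of 15 mice. The list holds 40 genes of DNA replication and mitosis. Of these, 39 were measured by a probe set whose annotation gives that gene's symbol alone, out of 19938 named genes and 35557 probe sets on the array. The 40th, the mitotic cyclin Ccnb1, has no probe set named for it here. Where a gene had several probe sets, the brightest over the 15 arrays stood for it, which concerned Pcna, Tk1 and Top2a.

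The tissue came from 8 Sfrp5 knockout mice carrying the Q27Stop allele and 7 wild-type mice, all male and on the C57BL6/J background. Sfrp5 encodes a secreted protein that binds Wnt ligands, and the comparison asks how its loss alters this fat depot on high-fat diet. Both genotypes had eaten high-fat diet for 8 weeks from 4 weeks of age and were killed at 12 weeks, and each mouse gave 1 array of total RNA from the whole depot, so no group on another diet enters. The allele is not limited to a cell type by the labels, and the replicates are separate mice.

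A dividing cell first loads the MCM helicase onto replication origins, then fires them and copies its DNA, and then builds a spindle that pulls the chromosomes apart. Genes for the copying step are switched on mainly by E2F factors at the entry to S phase. Genes for the spindle and for cell separation are switched on later, through promoters that carry CHR and CCAAT elements bound by the DREAM and B-Myb complexes and by NF-Y. In obese gonadal fat of mice, dividing cells are known among macrophages, endothelial cells and adipocyte progenitors. In bulk tissue, fewer cells of a type and less RNA per cell cannot be told apart.

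Signal of Sfrp5 was lower in knockout mice, at 6.69 ± 0.40 (SD, n = 8) against 7.92 ± 0.24 (SD, n = 7) in wild type on the log2 scale of the array. Knockout mice spanned 6.02 to 7.12 and wild-type mice 7.66 to 8.33, without overlap. The adipocyte genes, the defining markers of the tissue, had a mean log2 signal of 11.04 to 11.29 in knockout mice and 10.95 to 11.28 in wild-type mice. Epididymis genes stood apart in knockout replicate 2, at a mean of 10.66 against 5.82 to 6.78 in the other knockout mice and 5.88 to 6.83 in wild-type mice. Testis germ cell genes had a mean of 8.26 and 8.11 in knockout replicates 2 and 3. In wild-type replicates 2, 4 and 6 that mean was 7.30, 7.28 and 7.12, and in the remaining mice it was 6.02 to 6.64. The median of an array lay between 6.99 and 7.07. Arrays occupy positions 8 to 15 for the knockout and 1 to 7 for wild type, so position and genotype cannot be told apart. The labels also give each mouse a number of unstated meaning, which for knockout replicates 7 and 8 falls within the wild-type span and for the other knockout mice below it.

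Promoters are shown first for Top2a, Cenpe and Mki67. Among measured genes whose promoter was given and holds a motif, these 3 went most closely with the other cell division genes. Ccna2 went more closely than Mki67, but no promoter was given for it, so its motifs were not examined. Mcm5, a subunit of the MCM helicase, was added after its values were seen, to set a replication promoter beside the mitotic ones. Each sequence runs 5′ to 3′ on the gene's own strand, from 250 bases before the RefSeq start to 50 bases after it, in GRCm38.p6. Top2a lies at chr11:99024140-99024439 on the minus strand, Cenpe at chr3:135212313-135212612 on the plus strand, Mki67 at chr7:135716330-135716629 on the minus strand and Mcm5 at chr8:75109259-75109558 on the plus strand. Capitals mark a CHR element (TTTGAA with its variant TTCGAA), the CCAAT box or an E2F site (TTCCCGC plus its variants TTCGCGC plus TTGCCGC plus TTGGCGC), read on both strands, so that a CCAAT box on the other strand appears as ATTGG. Matches of different motifs may share letters. The variant TTCGAA, which reads the same on both strands, counts once.
Top2a: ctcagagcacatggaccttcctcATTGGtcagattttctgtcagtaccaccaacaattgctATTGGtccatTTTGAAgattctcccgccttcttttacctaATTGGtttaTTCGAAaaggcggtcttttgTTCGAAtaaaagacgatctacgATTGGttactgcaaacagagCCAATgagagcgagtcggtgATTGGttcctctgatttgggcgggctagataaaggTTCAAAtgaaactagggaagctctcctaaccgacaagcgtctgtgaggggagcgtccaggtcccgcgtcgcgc
Cenpe: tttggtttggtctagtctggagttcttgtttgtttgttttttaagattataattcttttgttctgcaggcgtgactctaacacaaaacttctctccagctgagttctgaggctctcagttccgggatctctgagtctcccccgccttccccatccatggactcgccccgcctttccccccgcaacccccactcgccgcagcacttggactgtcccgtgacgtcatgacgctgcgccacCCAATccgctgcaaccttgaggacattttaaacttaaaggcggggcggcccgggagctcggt
Mki67: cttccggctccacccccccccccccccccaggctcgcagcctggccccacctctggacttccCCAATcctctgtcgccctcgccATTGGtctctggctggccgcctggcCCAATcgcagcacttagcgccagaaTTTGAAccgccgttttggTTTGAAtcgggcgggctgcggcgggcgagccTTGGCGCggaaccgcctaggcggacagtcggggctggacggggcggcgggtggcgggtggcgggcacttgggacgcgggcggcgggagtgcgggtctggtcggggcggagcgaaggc
Mcm5: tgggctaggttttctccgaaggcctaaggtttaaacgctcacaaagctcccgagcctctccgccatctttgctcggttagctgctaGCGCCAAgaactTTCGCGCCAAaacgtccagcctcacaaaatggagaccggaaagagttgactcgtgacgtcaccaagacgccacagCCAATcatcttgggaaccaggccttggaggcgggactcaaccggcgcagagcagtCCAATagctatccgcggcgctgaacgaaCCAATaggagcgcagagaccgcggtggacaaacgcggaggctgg
The Top2a promoter holds 4 CHR and 6 CCAAT matches and 0 E2F matches. The Mki67 promoter holds 2 CHR, 3 CCAAT and 1 E2F match. Mcm5 shows the other arrangement, with 3 E2F and 3 CCAAT matches and 0 CHR matches, and the Cenpe window holds 1 CCAAT match alone.

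Promoters were given for 33 of the 39 measured genes. A CHR match lay in 20 of these (60.6%), against 19.4% of all 27025 promoters of the same length. A CCAAT match lay in 25 (75.8%), against 37.9% of all promoters, and both matches in 18 (54.5%), against 7.70%. E2F matches lay in 12 (36.4%), against 9.69%. By role, E2F matches lay in 6 of 9 promoters of G1/S cyclins and origin licensing genes, and CHR matches in 3 of them. CHR matches lay in 5 of 5 promoters of mitotic cyclins, kinases and Cdc20 and in 4 of 4 of the central spindle and cytokinesis genes, each with 1 promoter holding an E2F match. They lay in 3 of 5 kinetochore and checkpoint promoters, in 3 of 4 spindle promoters and in 2 of 2 of the mitotic chromosome genes, and in 0 of 4 of nucleotide supply and the clamp. A match is a stretch of letters and not a measured binding site.

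Mean signal over the 39 genes differed little by genotype and widely between mice of one genotype. The cell division mean was 7.32 ± 0.28 (SD, n = 8) in knockout mice and 7.40 ± 0.27 (SD, n = 7) in wild-type mice, a log2 difference of -0.08 (SE 0.14). Knockout replicates 1 to 8 had 7.51, 7.05, 7.42, 6.88, 7.33, 7.13, 7.65 and 7.62. Wild-type replicates 1 to 7 had 7.88, 7.63, 7.15, 7.12, 7.29, 7.42 and 7.33. The lowest mouse was a knockout and the highest a wild type, and the remaining mice of both genotypes lay intermixed between them. With knockout replicates 7 and 8 as the only knockout mice the difference was 0.23, and without them it was -0.18, so the sign turned with 2 mice. None of these differences exceeded the spread of 0.28 within a genotype.

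**Figure D1:**
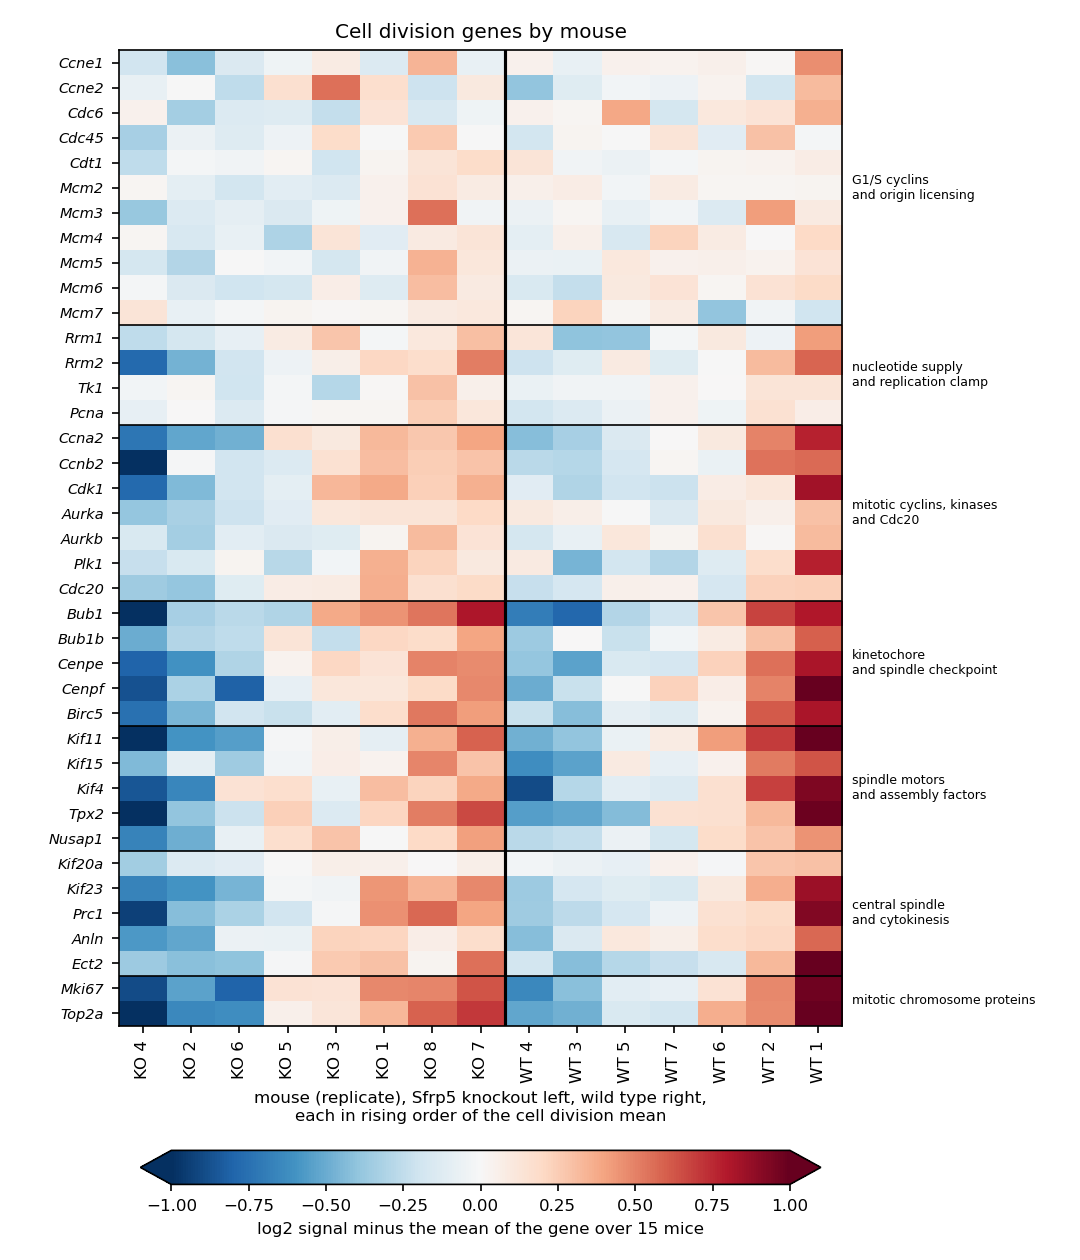
Heat map of the log2 signal of the 39 measured cell division genes (rows, by role) minus the gene's mean over 15 mice, with colours ending at 1 unit either way, for 8 Sfrp5 knockout mice on the left and 7 wild-type mice on the right, each in rising order of the cell division mean. Mitotic genes go from low to high together across mice in both genotypes, with knockout replicate 4 (mean 6.88) and wild-type replicate 1 (mean 7.88) at the ends.

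Limma called 0 of 39 genes between the genotypes at an adjusted p below 0.05, where 0.0337% of all probe sets were called. At an unadjusted p below 0.05 the count was 1 of 39, against 9.97% of all probe sets. Ranges of knockout and wild-type mice overlapped for all 39 genes, and ranges stood apart for 0.217% of all probe sets. The signal was lower in the knockout for 32 genes and higher for 7, with a median log2 difference of -0.08, beside -0.01 over all probe sets, of which 47.4% were higher. These 32 differences are not separate observations, since the genes varied together between mice.

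Among the genes that license and start replication, 9 of 11 were lower in the knockout and 2 higher, and 0 were called. Cdc6, the loader of the MCM helicase, had the lowest p of the list. It read 6.01, 6.22 and 6.49 in knockout mice (lowest, median and highest) against 6.18, 6.46 and 6.74 in wild-type mice. Knockout replicate 1 alone exceeded the wild-type mean, but the ranges overlapped over most of their length. The log2 difference of Cdc6 was -0.23 (SE 0.09; limma adjusted p = 0.389). Ccne1, the cyclin that drives cells into S phase, read 6.93, 7.25 and 7.69 in knockout mice against 7.28, 7.40 and 7.82 in wild-type mice. Its highest value was wild-type replicate 1, and its difference was -0.16 (SE 0.10; limma adjusted p = 0.668). Its paralog Ccne2 read 6.99, 7.29 and 7.79 in knockout mice against 6.84, 7.19 and 7.56 in wild-type mice, with a difference of 0.11 (SE 0.12). The helicase subunits Mcm2 to Mcm6 had differences of -0.08 to -0.05, and Mcm7 had 0.08. Cdc45, which activates the helicase, and Cdt1, which brings it to origins, had differences of -0.03 and -0.04.

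Nucleotide supply and the replication clamp gave 2 higher and 2 lower genes of 4, none of them called. Rrm2, the regulated subunit of ribonucleotide reductase, had a difference of -0.14 (SE 0.17), and its partner Rrm1 had 0.06. The sliding clamp gene Pcna had a difference of 0.04 (SE 0.07), and its 2 probe sets correlated at 0.999 across mice. For thymidine kinase, Tk1, the brighter probe set gave -0.04 and the other 0.20, so that its probe sets disagree in sign.

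The 7 measured genes of mitotic cyclins, kinases and Cdc20 were near each other in genotype difference, between -0.13 for cyclin A2 (Ccna2) and 0.01 for the polo kinase Plk1. Cdk1, the kinase that drives entry into mitosis, read 6.59, 7.44 and 7.75 in knockout mice against 7.07, 7.26 and 8.21 in wild-type mice. The median was higher in the knockout and the mean lower, at a difference of -0.06 (SE 0.20). Aurka and Aurkb, the aurora kinases of the spindle pole and the centromere, had -0.12 and -0.10, and Cdc20, which activates the anaphase-promoting complex, had 0.00.

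Kinetochore and checkpoint genes gave 4 lower and 1 higher of 5. Cenpf, a kinetochore protein, had -0.31 (SE 0.24), and the checkpoint kinases Bub1 and Bub1b had 0.06 and -0.10. The centromeric motor Cenpe read 6.32, 7.21 and 7.62 in knockout mice against 6.59, 6.98 and 7.94 in wild-type mice, a difference of -0.09 (SE 0.23). Birc5, or survivin, of the chromosomal passenger complex, read 6.91, 7.50 and 8.18 in knockout mice against 7.22, 7.56 and 8.47 in wild-type mice, a difference of -0.16 (SE 0.21). Both genes spread over more than 1 log2 unit within each genotype.

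All 5 spindle genes and all 5 genes of the central spindle and cytokinesis were lower in the knockout, and 0 were called. Kif11, the motor that pushes spindle poles apart, had the most negative difference of the 39, -0.35 (SE 0.26; limma adjusted p = 0.738). It read 6.50, 7.50 and 8.14 in knockout mice against 7.07, 7.63 and 8.58 in wild-type mice, with a range far wider than that difference in each genotype. Kif15, a motor that can act beside Kif11, read 5.73, 6.18 and 6.66 in knockout mice against 5.55, 6.21 and 6.80 in wild-type mice, with a difference of -0.01. Kif20a, a motor of the central spindle, read 6.19, 6.54 and 6.60 in knockout mice against 6.46, 6.53 and 6.84 in wild-type mice. In 0 of 8 knockout mice did it exceed the mean of wild type, while the medians were nearly equal, with a difference of -0.12 (SE 0.08; limma adjusted p = 0.693). The chromokinesin Kif4, the spindle assembly factor Tpx2 and the microtubule bundler Nusap1 had differences of -0.10 to -0.03. The cytokinesis genes Kif23, Prc1, Anln and Ect2 had -0.14 to -0.02.

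As a role mean, the mitotic chromosome genes had the widest SD within genotype, 0.59, while the single gene with the widest was the checkpoint kinase Bub1, at 0.62. Mki67, which encodes the Ki-67 protein used to mark cycling cells, read 6.81, 7.84 and 8.34 in knockout mice against 7.06, 7.63 and 8.68 in wild-type mice. The highest mouse had 2.88-fold the signal of the lowest within the knockout and 3.07-fold within wild type, so most of the variation lay inside the groups, and the difference was -0.09 (SE 0.28; limma adjusted p = 0.946). Top2a, the topoisomerase that untangles sister chromosomes, read 7.51, 8.67 and 9.29 in knockout mice against 8.06, 8.43 and 9.63 in wild-type mice. Its highest over lowest signal was 3.45-fold in the knockout and 2.95-fold in wild type, and its difference was -0.14 (SE 0.29; limma adjusted p = 0.918). A second Top2a probe set at a log2 signal near 4.8 correlated with the first at 0.03 and carried none of this pattern.

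**Figure D2:**
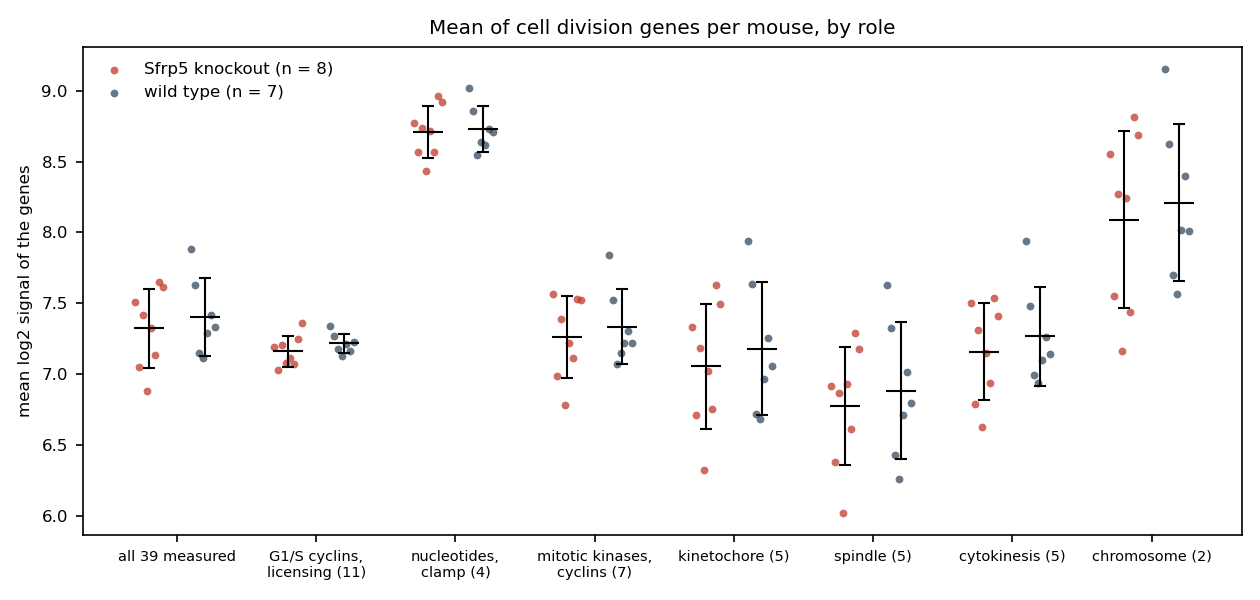
Mean log2 signal per mouse over all 39 measured cell division genes and over each role, for Sfrp5 knockout (n = 8, left of each pair) and wild type (n = 7), with bars at the mean ± SD. The genotypes overlap in every role, and the spread within a genotype grows from 0.09 for origin licensing to 0.59 for the mitotic chromosome genes (SD within genotype).

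The cell division genes moved together from mouse to mouse. With genotype means subtracted, the 741 pairs of measured genes had a median Pearson correlation of 0.637 over the 15 mice, and 94.6% of pairs were above 0. Over all pairs of named genes the median was 0.0125 and 51.4% were above 0. Without knockout replicate 8 and wild-type replicate 2, the mice highest in macrophage genes, the median of the pairs was 0.668. Points of one mouse share an array, so these values describe the 15 arrays.

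The roles differed in how closely their genes went with the rest. The mean of the other genes is made largely of mitotic genes, which vary more, so it lies nearer to them by construction. Among the 24 genes of the 5 mitotic roles, the correlation with the mean of the other cell division genes had a median of 0.914 and ranged from 0.719 (Plk1) to 0.985 (Top2a). Cenpe followed at 0.978 and Ccna2 at 0.977. Among the 11 licensing genes the median was 0.542, from -0.288 (Mcm7) to 0.704 (Ccne1), while the mean of all licensing genes correlated at 0.835 with the mean of the other roles. Licensing genes also varied less, with a median SD within genotype of 0.168, beside 0.435 for the mitotic genes. Rrm2 was the gene outside the mitotic roles that reached 0.9, at 0.946.

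A few mice held the ends of most genes. Knockout replicate 4 was the lowest knockout in 25 of 39 genes, and knockout replicates 7 and 8 were the highest in 18 and 13. Wild-type replicate 1 was the highest wild type in 31 of 39 genes, and wild-type replicates 4 and 3 the lowest in 20 and 11. Array medians were 7.07 for knockout replicate 4 and 7.002 for wild-type replicate 1, so the mouse lowest in cell division genes had the highest array median and the highest mouse a low one.

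The named genes outside the list that went most closely with the cell division mean were Kpna2, Cip2a, Ckap2, Tacc3, Knl1, Hmmr, Smc2, Lmnb1, Cks2 and Dlgap5, with correlations of 0.970 for Kpna2 to 0.932 for Dlgap5 over 15 mice, genotype means subtracted. Kpna2 is an importin that carries proteins into the nucleus, Knl1 a kinetochore scaffold and Smc2 a condensin subunit. None of the 10 had an adjusted p below 0.05 between genotypes.

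The next question was whether mice with more macrophage RNA also had more cell division RNA. The mean of 16 pan-macrophage genes was 9.30 ± 0.34 (SD, n = 8) in knockout mice and 9.20 ± 0.19 (SD, n = 7) in wild-type mice. All 16 of the list's genes were measured, including Adgre1, Cd68 and Csf1r, and the mean ranged from 8.94 to 10.02 in the knockout and from 8.999 to 9.56 in wild type. The list was not uniform. The log2 change per log2 unit of the list's own mean was above 0 for 15 of the 16, but -0.05 for Mertk. Knockout replicate 8 was the highest at 10.02, apart from the other knockout mice at up to 9.43, and wild-type replicate 2 was the highest wild type.

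Across the 15 mice with genotype means subtracted, the cell division mean correlated with the macrophage mean at Pearson's r = 0.706 and Spearman's rho = 0.829. Without the 2 mice farthest from the median in macrophage genes, knockout replicates 8 and 2, r was 0.732. It was 0.828 within the 8 knockout mice and 0.525 within the 7 wild-type mice. Wild-type replicate 1 departed most from the trend, with the highest cell division mean, 7.88, at a macrophage mean of 9.17, below the wild-type mean, and without this mouse r was 0.852. The difference between genotypes in the slope was tested gene by gene. Limma called 0 of 39 genes for a slope that differs by genotype, with 0 at an unadjusted p below 0.05, where 0% of all probe sets were called and 4.55% had an unadjusted p below 0.05.

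**Figure D3:**
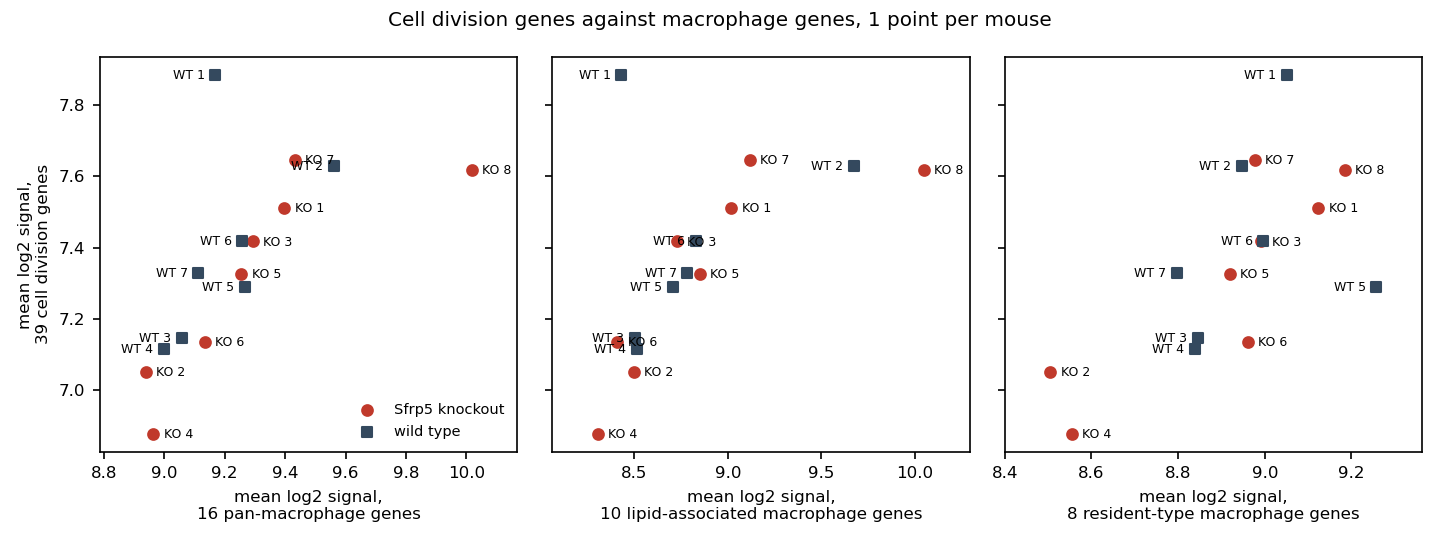
Mean log2 signal of the 39 measured cell division genes (vertical axis) against that of 16 pan-macrophage, 10 lipid-associated and 8 resident-type macrophage genes, 1 point per mouse, for Sfrp5 knockout (circles) and wild type (squares). Mice high in pan-macrophage genes are high in cell division genes, apart from wild-type replicate 1 at 9.17 and 7.88.

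Gene by gene, the slope on the macrophage mean was estimated with genotype in the same limma model, as the log2 change of the gene per log2 unit of the macrophage mean. It was above 0 for 38 of 39 genes, with a median of 0.64, beside -0.01 over all probe sets. Limma called 6 of 39 genes with a positive slope, or 15.4%, where 3.27% of all probe sets were called, and 0 with a negative slope, where 0.734% were called. At an unadjusted p below 0.05 there were 30 of 39 genes, against 17.0% of all probe sets. Since the genes vary together, these counts rest on the same few mice.

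The called slopes fell in 4 roles. Mcm3 had the lowest p, with a slope of 0.73 (SE 0.12; limma adjusted p = 0.003). It read 6.33, 6.64 and 7.26 in knockout mice against 6.57, 6.68 and 7.13 in wild-type mice, and its highest values were those of knockout replicate 8 and wild-type replicate 2, each far above the rest of its genotype. Mcm5 read 6.81, 7.07 and 7.45 in knockout mice against 7.03, 7.14 and 7.24 in wild-type mice, with a slope of 0.45 (SE 0.11; limma adjusted p = 0.025). Knockout replicate 8 was again the highest, while wild-type replicate 2 lay below the wild-type median. The other 4 were mitotic, with slopes of 1.19 (SE 0.28) for Birc5, 1.28 (SE 0.32) for Cenpe, 1.55 (SE 0.41) for Top2a and 1.002 (SE 0.27) for Kif15. Their limma adjusted p was 0.027, 0.034, 0.047 and 0.049 in that order. Kif15 was dim, with a mean log2 signal of 6.17 over the 15 arrays, below the 33rd percentile of all probe sets (6.24). Mki67 had a slope of 1.41 (SE 0.40; limma adjusted p = 0.070). At the other end were Mcm7, Ccne2 and Cdc6, with slopes of 0.00, -0.04 and 0.10. Mcm7 read 6.98, 7.08 and 7.18 in knockout mice against 6.67, 7.08 and 7.28 in wild-type mice, and its highest and lowest values were both in wild type.

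The count of called slopes turned on single mice. It was 1 without knockout replicate 2 or knockout replicate 4, 3 without knockout replicate 6, wild-type replicate 2 or wild-type replicate 4, 16 without wild-type replicate 1, and 4 or 5 without any 1 of the others. Shares of all probe sets called in these fits are not given here, so a change over the whole array cannot be told apart. Over the 15 fits that left out a mouse, Mcm3 was called in 14, Mcm5 in 12, Birc5 in 11 and Cenpe in 10, but Top2a and Kif15 in 1 each, that without wild-type replicate 1. Mcm5, Birc5 and Cenpe were not called without knockout replicate 2 or 4. Mcm5 and Birc5 also missed the threshold without knockout replicate 8, Birc5 and Cenpe without wild-type replicate 2, and Cenpe without knockout replicate 6 or wild-type replicate 4. Without knockout replicate 8 the slope of Mcm3 was 0.60 (limma adjusted p = 0.164). Without both mice highest in macrophage genes limma called 1 gene, Rrm2 with a slope of 1.90 (SE 0.38; adjusted p = 0.047), where 0.591% of probe sets were called with a positive slope, 0.0169% with a negative one and 0.607% in either direction. In that fit 25 of 39 genes had an unadjusted p below 0.05, against 12.0% of all probe sets, and 23 of the 25 were mitotic, with 1 licensing gene. The median slope was then 1.30, and that of Top2a 3.03 (SE 0.66; limma adjusted p = 0.065).

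**Figure D4:**
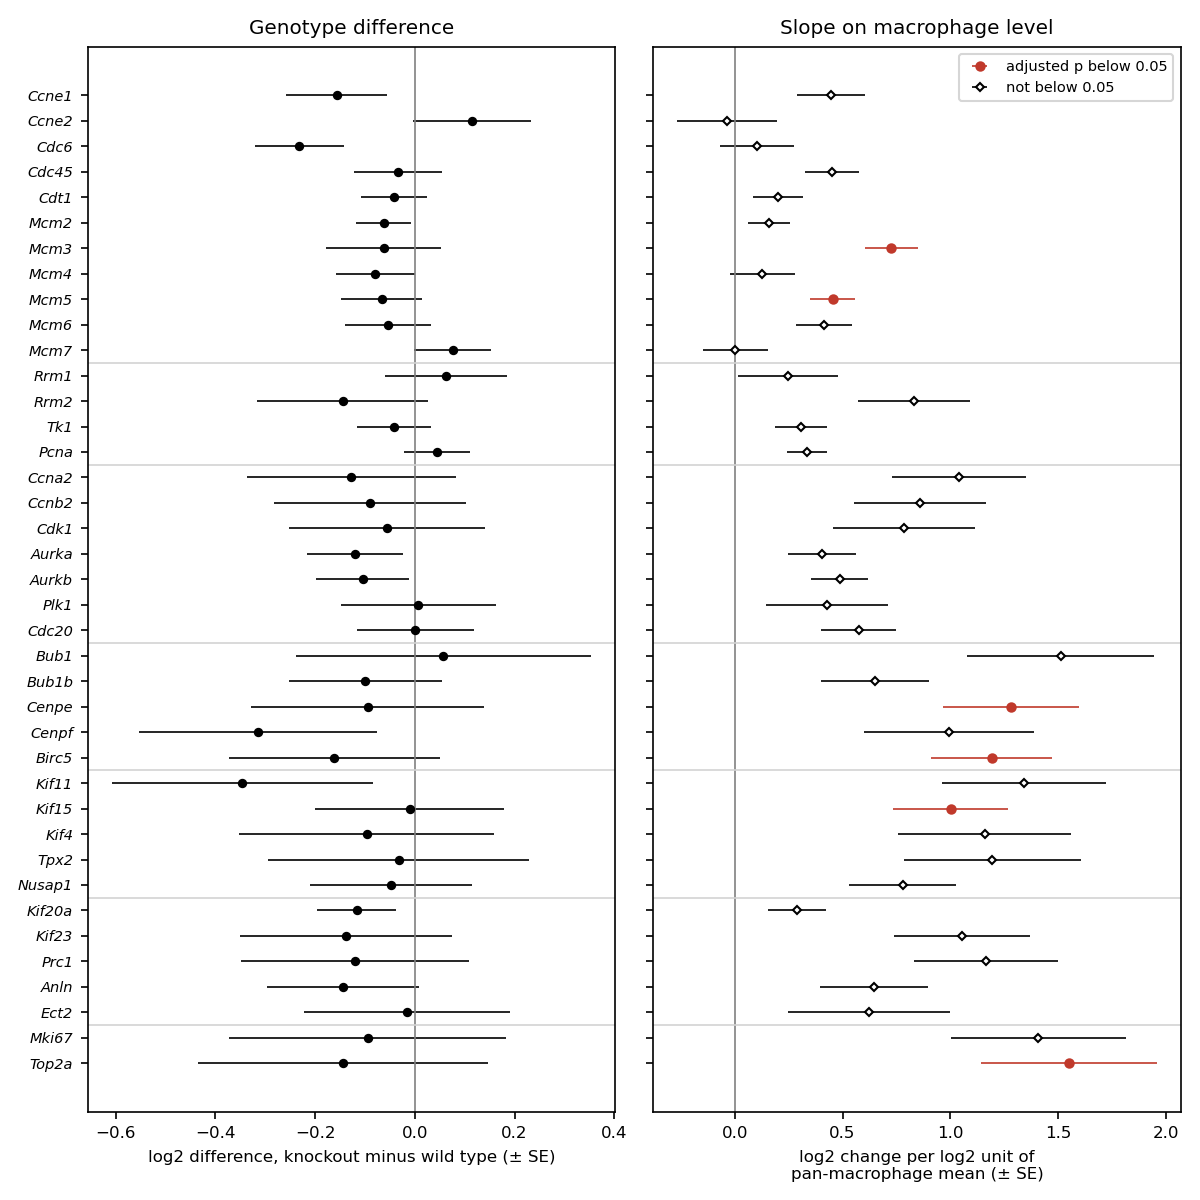
Log2 difference, knockout minus wild type (left), and slope on the pan-macrophage mean (right) for the 39 measured cell division genes, each with its SE, in order of role. Genotype differences lie between -0.35 and 0.11 with 0 called, while 38 of 39 slopes are above 0 and the 6 with an adjusted p below 0.05 are filled red.

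By role, the median slope was 0.20 for the licensing genes, 0.32 for nucleotide supply and the clamp, 0.58 for mitotic cyclins and kinases, 0.64 for cytokinesis, 1.16 for the spindle, 1.19 for the kinetochore and 1.48 for the mitotic chromosome genes. The correlation of the role mean with the macrophage mean ran otherwise, at 0.830 for licensing genes and 0.615 to 0.698 for the other roles. The licensing mean averages 11 genes and the others 2 to 7, so these values do not rank single genes. Gene by gene, the correlation was -0.042 (Ccne2) to 0.878 (Mcm3) for licensing and 0.375 (Plk1) to 0.754 (Birc5) for mitotic genes. Ccne2, Mcm7, Cdc6 and Mcm4 lay below the mitotic range, and Mcm3 and Mcm5 above it. By their medians, licensing genes had shallower slopes and a smaller spread between mice than mitotic genes. Single genes overlapped, with slopes of 0.73 for the licensing gene Mcm3 and 0.29 for the mitotic gene Kif20a. Without both mice highest in macrophage genes the correlation of the licensing mean was 0.728, and those of the other role means were 0.697 to 0.794.

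Other cell type lists were set beside the macrophage genes in the same way. Correlations with the cell division mean were 0.652 for resident-type macrophage genes, 0.615 for endothelial genes, 0.598 for lipid-associated macrophage genes, 0.424 for adipocyte genes and 0.404 for T and NK cell genes. They were 0.304 for progenitor and fibroblast genes and 0.206 for neutrophil and mast cell genes. Mesothelial genes stood at -0.458, B cell genes at -0.383, epididymis genes at -0.376 and testis germ cell genes at -0.291. The resident-type correlation rested in part on knockout replicates 2 and 4, without which it was 0.392. It was 0.852 within the knockout and 0.321 within wild type, and the lipid-associated one was 0.813 and 0.274. The progenitor and fibroblast list was at 0.740 within the knockout and -0.639 within wild type. The differences between genotypes in these correlations were not tested. The progenitor and fibroblast mean spanned 9.69 to 10.06 in knockout mice and 9.68 to 9.86 in wild-type mice. Which cell type the cell division RNA came from was not tested.

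**Figure D5:**
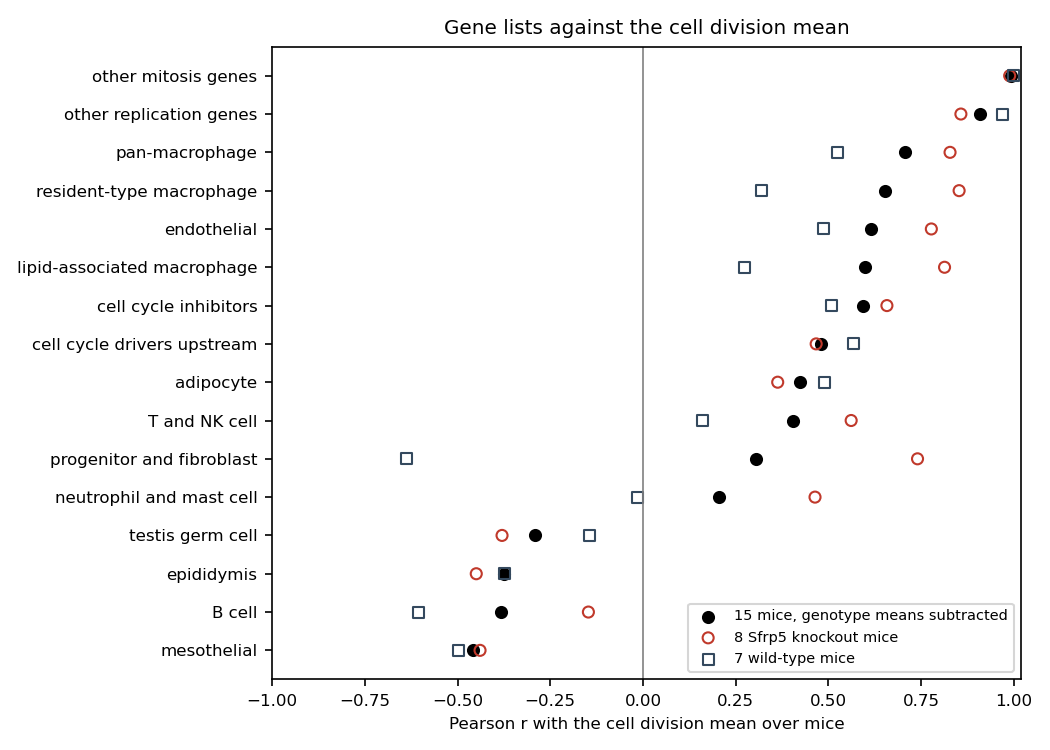
Pearson correlation of each gene list's mean with the cell division mean, over 15 mice with genotype means subtracted (filled), within 8 Sfrp5 knockout mice (circles) and within 7 wild-type mice (squares). Other mitosis genes lie at 0.993 and pan-macrophage genes at 0.706, and the progenitor and fibroblast list is on opposite sides of 0 in knockout and wild-type mice.

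Further genes of the cell cycle behaved like the listed ones or stood apart from them by pathway. Of 57 other mitosis genes measured, 14 were higher and 43 lower in the knockout, and 0 were called by limma. An unadjusted p below 0.05 was reached by 1 of them, against 9.97% of all probe sets. That gene was Ccnf, or cyclin F, at a difference of -0.20 (SE 0.07; adjusted p = 0.334), followed by Cdca3 at -0.17 and Sgo1, the protector of sister chromatid cohesion, at -0.21. Their slopes on the macrophage mean were above 0 for 56 of 57, with 9 called, where 3.27% of all probe sets were called with a positive slope. The lowest p were those of the kinetochore genes Ndc80 at 1.28 (SE 0.24; limma adjusted p = 0.007), Spc25 at 1.68 and Cenpa at 0.76. Spc25 was called in 15 of 15 fits that left out a mouse, Ndc80 in 14, all but that without knockout replicate 8, and Cenpa in 11, all but those without knockout replicates 2, 4 or 8 or wild-type replicate 2. Of the other 6, Ncaph was called in 12 fits, Dlgap5 in 11, Incenp in 10, Cdca8 in 5 and Knl1 and Cks2 in 2 each. Their mean correlated with that of the listed genes at 0.993.

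Of 34 other replication genes, 16 were higher and 18 lower, with 0 called by limma and 0 at an unadjusted p below 0.05. Tipin, a replication fork protein, had a difference of 0.16, the flap endonuclease Fen1 -0.18 and the kinase Cdc7 -0.19. Their mean correlated with that of the listed genes at 0.907. Slopes on the macrophage mean were above 0 for 29 of 34, with a median of 0.22, beside -0.01 over all probe sets. At an unadjusted p below 0.05 there were 10 of 34, against 17.0% of all probe sets. Limma called 1 positive slope of 34, a share no higher than the 3.27% of all probe sets. It was Brca1 at 0.51 (SE 0.13; limma adjusted p = 0.042), and Fen1 and Gins2 followed at 0.46 and 0.40. Brca1 kept its call in 6 of 15 fits with a mouse left out, and lost it without any of knockout replicates 1, 2, 3, 4, 6 and 8 or wild-type replicates 3, 6 and 7.

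Upstream drivers of the cell cycle gave 7 higher and 5 lower genes of 12, 0 called. Ccnd2 had a difference of -0.20 (SE 0.10), Ccnd1 0.23 (SE 0.12) and Cdk4 0.14 (SE 0.08), so the D-type cyclins had opposite signs. Of their slopes, 0 were called by limma and 3 of 12 had an unadjusted p below 0.05, against 17.0% of all probe sets. These were Ccnd2 at 0.49 (limma adjusted p = 0.079), Myc at 0.49 and E2f3 at 0.50.

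Among 15 cell cycle inhibitors, 10 were higher and 5 lower in the knockout, with 0 called. An unadjusted p below 0.05 was reached by 1 of them, against 9.97% of all probe sets. That was Cdkn1b, which encodes p27, an inhibitor of cyclin-dependent kinases, at 10.46 ± 0.16 (SD, n = 8) in knockout mice and 10.13 ± 0.14 (SD, n = 7) in wild-type mice. Its difference was 0.32 (SE 0.08; limma adjusted p = 0.150), and it correlated with the cell division mean at -0.597 within genotype. Btg1 and Cdkn2a had differences of 0.13 and -0.08. Limma called 2 positive slopes of 15 on the macrophage mean, beside 3.27% of all probe sets, for Cdkn2b, or p15, at 0.86 (SE 0.19; adjusted p = 0.022) and the antiproliferative gene Btg2 at 0.62 (SE 0.16; adjusted p = 0.042), while Cdkn1b had -0.30 (adjusted p = 0.278). With a mouse left out, Cdkn2b was called in 11 of 15 fits, all but those without knockout replicates 2, 4 or 8 or wild-type replicate 2, and Btg2 in 6. Sfrp5 itself correlated with the cell division mean at 0.722 within genotype, and its slope on the macrophage mean was 0.91 (SE 0.22; limma adjusted p = 0.028), not called without knockout replicates 2 or 4 or wild-type replicate 2.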

How the data were processed

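Gene expression was measured on Affymetrix arrays, 1 per mouse. Values were deposited on the log2 scale, 1 per probe set and array, after RMA by the authors, per the submitters' processing notes. Affymetrix Expression Console 1.1.2800.19935, affy 1.18 and limma are listed there without a role. RMA aligns the distributions of arrays, so a shift shared by most genes is removed. The genome build and detection calls were not given in the sources used here. The number of arrays limits the precision. Per the labels, the cDNA was amplified from 10 ng of total RNA.

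Of the probe sets, 21789 carried 1 symbol, 1621 carried several and 12147 carried none. Genotypes were tested in limma 3.58.1 (R 4.3.3) over all 35557 probe sets, without a filter and with Benjamini-Hochberg adjustment, at a threshold of 0.05. A second model gave the slope on the pan-macrophage mean with genotype as a covariate, and a further model its interaction with genotype. Means, SDs and correlations were computed in R, and probe set naming, motif searches, outlier flags and figures were made in Python 3.11.15. The fits were tested on simulated data. The members, gene lists and tests were chosen with earlier results of these data known. All 39 genes are described, and the lowest, median and highest values per genotype are given for Mki67, Top2a and the genes with the lowest p in each test and the highest p in the slope test. Cdk1 was added after its values were seen. Promoters come from RefSeq (GRCm38.p6), and the first listed was taken where a gene had several.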

Additional observations from a re-analysis of the deposited data

Results flagged for a closer look

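Values that stood apart from the other mice of their genotype were looked for in the 39 genes and in the means of the gene lists. Of 128 groups tested, 12 held such a value, and chance gives about 1 in 20. Among the cell division genes it was 6 of 78.

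Wild-type replicate 1 stood apart as the highest wild type for Ccne1 (7.82, others up to 7.41), Cdk1 (8.21, others up to 7.48) and Prc1 (8.39, others up to 7.66). Mcm3 was highest in knockout replicate 8 (7.26, others up to 6.75) and in wild-type replicate 2 (7.13, others up to 6.80). Ccnb2 was lowest in knockout replicate 4, at 7.26 with the other knockout mice from 8.06.

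Knockout replicate 8 stood apart in the pan-macrophage mean (10.02) and the lipid-associated macrophage mean (10.05), and wild-type replicate 2 in the lipid-associated mean (9.67). The T and NK cell mean was lowest in wild-type replicate 6 (6.60) and the endothelial mean in wild-type replicate 4 (8.87). The epididymis mean of knockout replicate 2 was 10.66. The part of these lists in the cell division values was not tested.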

How the results depend on the processing

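With limma, 0 cell division genes were called between genotypes in all 30 other settings, and 0 for a slope by genotype in all 24. Dropping dim probe sets, those with a mean log2 signal below 6.24, kept 37 of the 39 genes. The count of 6 genes called with the macrophage mean was then 12. It was 13 when arrays were centred on their medians, 3 after quantile normalization, 12 under array weights and 17 at a threshold of 0.10. It was 1 with the lipid-associated list and 3 with the resident-type list in place of the pan-macrophage list, and 1 to 16 with 1 mouse left out. It was 1 without knockout 8 and wild type 2, 1 without knockout 2 and wild type 4, 0 without all 4 of these (chosen after seeing the data), 0 without knockout 7 and 8, and 0 with these as the only knockout mice, where limma called 5 of all probe sets. Some settings also differ in the number of mice or of probe sets tested, and the cause of these shifts was not tested. For most of these settings the share of all probe sets called is not given here. The counts alone therefore do not tell a change in the listed genes from one over the whole array. With the replicate number as a block the count was 0. Same-numbered mice correlated at -0.117 to 0.248, and 1 of 7 knockout mice was closest to its own number. These values cannot tell whether the numbers pair the mice. The median difference was 0.22 and the difference in the cell division mean 0.23 with knockout 7 and 8 as the only knockout mice. With 1 mouse left out the difference in the cell division mean lay between -0.13 and 0.00. The correlation with the macrophage mean stayed above 0 in all 30 settings, from 0.368 to 0.852. With the mean of its probe sets, the slope of Top2a was 0.74.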
